A study of Homo sapiens with 6 samples.

Results

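The genes described here are 8 transcription factor genes of 2 families, the nuclear factor I (NFI) genes NFIA, NFIB, NFIC and NFIX and the ETS genes FLI1, ERG, ETS1 and ETS2. They were taken by gene name from the deposited gene table, where each had 1 row among 32679. Poly(A) RNA from HEY cells, an established human ovarian cancer line, was sequenced in 6 libraries. The 3 shNC libraries came from cells with a control hairpin and, according to the labels, no treatment, and the 3 shPQBP1 libraries from cells with a hairpin against PQBP1, a polyglutamine-binding splicing factor, treated with doxycycline (Dox) at 1 µg/ml. All 6 carry the time label day 3, whereas a supplementary figure legend of the study gives a shorter Dox treatment for the PQBP1-depleted HEY cells of its exon counts. The methods describe lentiviral pGIPZ hairpin vectors and stable lines selected with puromycin. Because only the shPQBP1 cells are labelled as Dox treated, the hairpin and the drug cannot be told apart in any difference below. The study calls the samples biological triplicates and says no more about how they were separated, so p-values measure the spread between these libraries, which may be partly technical.

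NFI proteins bind DNA as homodimers or heterodimers at the palindrome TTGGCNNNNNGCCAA, or more weakly at one arm of it, and can activate or repress transcription during the differentiation of brain, lung and muscle. ETS proteins share a winged helix-turn-helix domain that binds a GGAA core, often beside a partner factor. ERG and FLI1 are close relatives best known in endothelial and blood cells, and both are partners in cancer gene fusions, whereas ETS1 and ETS2 are targets of RAS-ERK signalling and are linked to invasion in many carcinomas.

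PQBP1 itself was first checked as the targeted gene. Its level was 7.18, 6.67 and 6.93 FPKM (fragments mapped per kilobase of a transcript, relative to all mapped fragments) in the 3 shNC libraries and 1.68, 1.72 and 1.44 FPKM in the 3 shPQBP1 libraries. The groups lay far apart, in the direction of the labels, with a log2 difference of -2.04 ± 0.10 (SE; limma, adjusted p = 0.00154).

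NFIB and FLI1 are the members for which the study designed PCR primers, and these are shown because they fix which parts of the genes were chosen for measurement by other means. Sequences run 5′ to 3′, and capitals mark the pair of primers that lie on the same bases on opposite strands.
NFIB-qPCR-F: gctgtgtcttatccaatcccg
NFIB-qPCR-R: tgcctttgaacaggatcacca
FLI1-qPCR-F: ccaacgagaggagagtcatcg
FLI1-qPCR-R: ttccgtgttgtagagggtggt
FLI1-semi-E6-7_F: aacctcccacaccgaccaa
FLI1-semi-E6-7_R: TTGGCTAGGCGACTGCTGG
FLI1-semi-CE_F: CCAGCAGTCGCCTAGCCAA
FLI1-semi-CE_R: cccctcccaggtgatacag
Matched to GENCODE v44 transcripts (hg38), both NFIB primers fell in exon 2 of 11 of the canonical transcript, at chr9:14307223-14307243 and chr9:14307130-14307150 on the minus strand. Their 114-base product is held by 14 of the 22 annotated NFIB transcripts. The FLI1 qPCR primers fell in exons 3 and 4 of 9, at chr11:128768243-128768263 and chr11:128772931-128772951, with a product of 200 bases in 5 of 10 transcripts. The pair named E6-7 ran from exon 5 to exon 8 of the canonical transcript (chr11:128781980-128781998 to chr11:128809181-128809199) with a product of 213 bases, and the pair named CE ran from the same exon 8 site to exon 9 (chr11:128810523-128810541) with a product of 107 bases. The gene-level values below sum over transcripts and do not separate these products. The table's transcript column lists 14 transcripts for NFIB and 5 for FLI1.

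The promoters of NFIB and ERG are shown because these were the members with an unadjusted p under 0.05, and that of ELK3 because it was the ETS gene outside the 8 with the largest difference. Each run is the 250 bases before the transcript start nearest to the canonical one, from RefSeq (GRCh38.p14), and capitals mark the motifs searched on both strands, GGAAG (ETS core, CTTCC on the other strand) and TTGGC (NFI arm, GCCAA on the other strand).
NFIB, chr9:14314142-14314391, minus strand: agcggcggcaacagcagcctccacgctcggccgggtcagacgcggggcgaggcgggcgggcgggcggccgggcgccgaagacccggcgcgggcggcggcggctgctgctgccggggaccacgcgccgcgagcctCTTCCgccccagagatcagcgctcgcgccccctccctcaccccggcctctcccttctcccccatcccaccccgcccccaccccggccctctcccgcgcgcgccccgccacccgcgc
ERG, chr21:38498478-38498727, minus strand: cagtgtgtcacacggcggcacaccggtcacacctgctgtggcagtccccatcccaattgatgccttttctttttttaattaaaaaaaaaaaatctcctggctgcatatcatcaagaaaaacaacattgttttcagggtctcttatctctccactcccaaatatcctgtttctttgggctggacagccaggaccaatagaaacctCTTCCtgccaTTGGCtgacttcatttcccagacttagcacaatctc
ELK3, chr12:96194125-96194374, plus strand: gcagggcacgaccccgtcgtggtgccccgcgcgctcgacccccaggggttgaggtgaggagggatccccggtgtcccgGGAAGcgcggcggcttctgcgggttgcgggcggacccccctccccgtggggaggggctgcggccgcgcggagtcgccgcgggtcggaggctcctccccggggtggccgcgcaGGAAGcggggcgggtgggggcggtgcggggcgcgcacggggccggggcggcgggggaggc
The NFIB window held 1 ETS core match, beginning 116 bases before the start. In the ERG window an ETS core match began 46 bases and an NFI arm 36 bases before the start, and the ELK3 window held 2 ETS core matches, at 172 and 60 bases. Such matches were common. The search was for GGAAG, and other sites with the GGAA core were neither searched nor marked. GGAAG was present in 65.1% and TTGGC in 40.8% of the 35116 windows of the same length, and the full palindrome, which contains 2 arms, in 0.0285%. The RefSeq table gave 25 windows, some overlapping, for 6 of the 8 members, of which 13 held GGAAG, 14 held TTGGC and 0 held the full palindrome. FLI1 and ETS1 were not among the 6. The base composition of the promoters differed, with 82.0% G and C in the NFIB and ELK3 windows and 44.8% in the ERG window.

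Among the 8 members, only NFIB passed the test across all genes, and it was higher after PQBP1 knockdown. ERG was higher by a similar factor at a much lower level without passing, FLI1, ETS2 and NFIC differed little, and ETS1 and NFIX varied more between libraries of 1 group than the groups differed. Of the 8, 7 had a mean of at least 1 FPKM over the 6 libraries and were tested. ERG passed this filter only through the shPQBP1 group, and NFIA, under 1 FPKM in every library, was not tested. In the fit, 1 of the 7 had a Benjamini-Hochberg adjusted p under 0.05 (limma), against 2.91% of the 11413 genes tested, and in the direction of higher in shPQBP1 the background was 1.73%. An unadjusted p under 0.05 was reached by 2 of the 7, against 23.6% of all genes, and 0 of the 7 had both this and a fold change over 2, against 1.52%. The 3 and 3 libraries did not overlap for 4 of the 7 tested members, against 34.4% of all genes. The median log2 difference was 0.37 over the 7, which is the value of ETS1, and 0.02 over all genes tested. NFIC, at 0.03, and ETS2, at 0.00, were close to 0. Shares of this kind lie near the background or rest on a few genes, and nothing particular to the members was read from them.

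**Figure D1:**
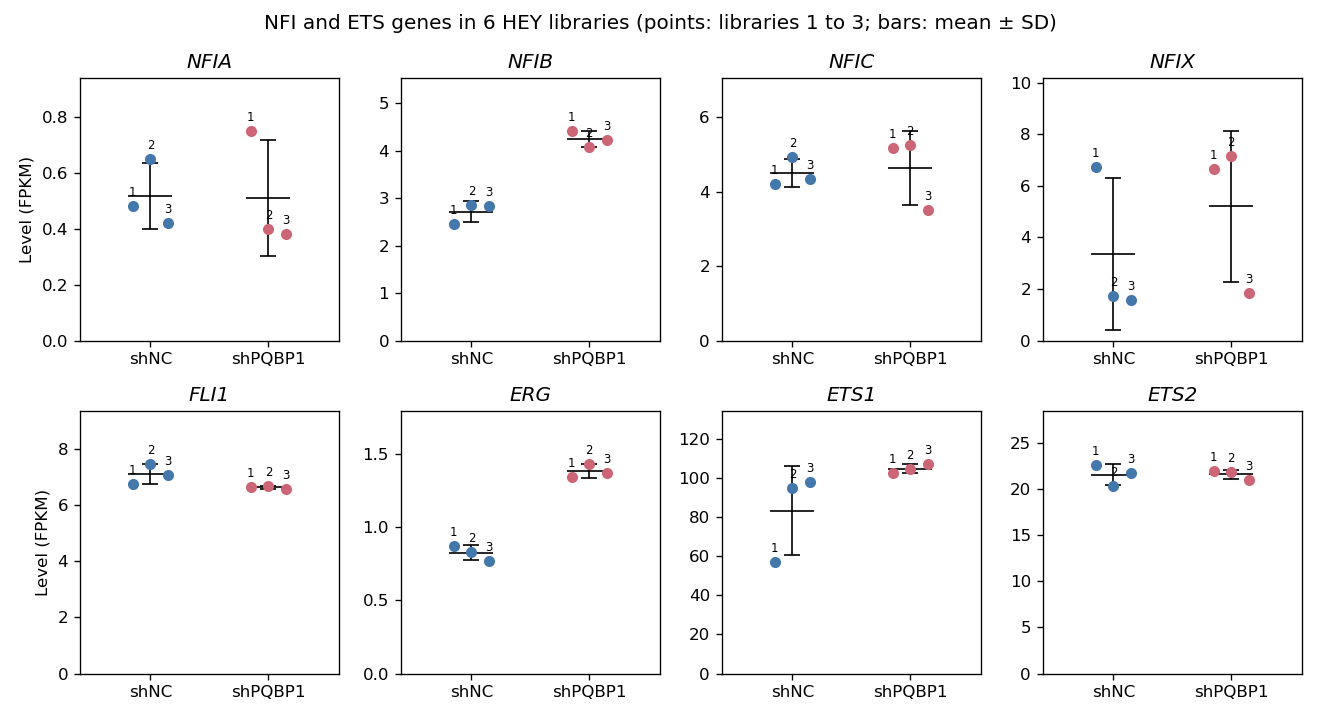
Level of each of the 8 genes in FPKM (vertical axes from 0, one scale per gene) in the shNC (blue) and shPQBP1 (red) libraries, with points numbered by library and bars for mean ± SD (n = 3). NFIB and ERG separate the groups by more than their spread, whereas NFIX falls near 7 or near 2 FPKM in libraries of both groups and ETS1 is low in shNC library 1 alone.

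NFIB, the NFI gene known for roles in lung and forebrain development and linked to metastasis in small cell lung cancer, lies at chr9:14081843-14398983 on the minus strand (hg38, GENCODE v44). Its level was 2.46, 2.86 and 2.83 FPKM in the shNC libraries and 4.42, 4.08 and 4.22 FPKM in the shPQBP1 libraries. Every shPQBP1 library lay above every shNC library, and the gap between the groups was several times the spread within them. On the log2(FPKM + 0.1) scale the difference was 0.63 ± 0.10 (SE), with a 95% confidence interval from 0.39 to 0.86 and an adjusted p of 0.0327 (limma). The exact permutation test of the 6 values gave a two-sided p of 0.1, the smallest that 3 against 3 libraries allow. NFIB stayed under 0.05 in 1 of the 6 fits that left out 1 library, the one without shNC library 1 (adjusted p = 0.0328), and its adjusted p was between 0.0812 and 0.147 in the other 5, while its log2 difference kept between 0.56 and 0.66. Over all 15 alternative fits that tested NFIB, the adjusted p ran from 0.0287 to 0.221 and was under 0.05 in 6 (limma).

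NFIC and NFIX are the NFI genes on chromosome 19. NFIC, a regulator of tooth root formation, lies at chr19:3314403-3469217 on the plus strand. Its level was 4.21, 4.92 and 4.34 FPKM in shNC and 5.17, 5.26 and 3.50 FPKM in shPQBP1, so that shPQBP1 library 3 lay under all shNC libraries and the other two above them. The log2 difference was 0.03 with a 95% confidence interval from -0.40 to 0.45 (adjusted p = 0.933, limma), and its sign turned under quantile normalization and in 3 of the 6 fits that left out a library.

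NFIX, which drives the switch from embryonic to fetal muscle, lies at chr19:12995475-13098796 on the plus strand. Its level was 6.75, 1.74 and 1.57 FPKM in shNC and 6.64, 7.15 and 1.84 FPKM in shPQBP1. It was thus high in 1 shNC and 2 shPQBP1 libraries and low in the other three, with a 4.55-fold ratio of the highest to the lowest library, where the other 7 members had ratios from 1.11 to 1.97. The log2 difference between the groups was 0.72 with an interval from -1.03 to 2.48 (adjusted p = 0.552, limma), an interval that holds differences in both directions. Leaving out 1 library moved it between 0.36, without shNC library 3, and 1.38, without shNC library 1.

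NFIA, needed for gliogenesis, lies at chr1:60865259-61462788 on the plus strand and was the least abundant member. Its level was 0.48, 0.65 and 0.42 FPKM in shNC and 0.75, 0.40 and 0.38 FPKM in shPQBP1. The groups overlapped throughout, and the exact permutation test gave a two-sided p of 0.8. When every gene above 0 FPKM was tested, its log2 difference was -0.05, with an interval from -0.79 to 0.69.

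The 4 NFI genes together reached 13.9, 10.2 and 9.16 FPKM in shNC and 16.98, 16.9 and 9.94 FPKM in shPQBP1. These sums followed NFIX, which made up 17.1% to 48.6% of the family in the shNC libraries and 18.5% to 42.3% in the shPQBP1 libraries. Without NFIX the sums were 7.15, 8.43 and 7.59 FPKM against 10.3, 9.74 and 8.10 FPKM, which overlap in shPQBP1 library 3, the library with the lowest NFIC of the group. NFIB alone accounted for 25.6% ± 6.96 of the NFI sum in shNC and 30.9% ± 10.1 in shPQBP1 (SD, n = 3), a range in which the groups overlap. All these sums are descriptions and were not tested.

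ERG, which maintains endothelial and blood stem cell identity, lies at chr21:38380027-38661780 on the minus strand. Its level was 0.87, 0.83 and 0.77 FPKM in shNC and 1.34, 1.43 and 1.37 FPKM in shPQBP1. The groups did not overlap, and the spread within each was small, but the shNC mean of 0.82 FPKM lies under the filter of 1 FPKM, so ERG was tested because of its shPQBP1 values. Its log2 difference was 0.68 ± 0.14 (SE), with a 95% confidence interval from 0.35 to 1.02. The unadjusted p was 0.0023 and the adjusted p 0.0575 (limma), just over the threshold. Over the 15 alternative fits that tested it, the adjusted p ran from 0.0218 to 0.263 and was under 0.05 in 3. The exact permutation p was again 0.1.

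FLI1, the relative of ERG used by megakaryocytes and endothelium, lies at chr11:128686535-128813267 on the plus strand. Its level was 6.76, 7.46 and 7.07 FPKM in shNC and 6.62, 6.66 and 6.58 FPKM in shPQBP1. The shPQBP1 libraries lay close together and below all shNC libraries, though shNC library 1 came within a narrow margin of them. The log2 difference was -0.10 ± 0.08 (SE), with an interval from -0.28 to 0.09 (adjusted p = 0.447, limma). Over the alternatives the difference stayed negative, from -0.17 to -0.06, and the adjusted p was 0.115 at the lowest.

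ETS1, the most abundant member and a factor of invasive and angiogenic programmes, lies at chr11:128458761-128587558 on the minus strand. Its level was 56.9, 94.7 and 97.7 FPKM in shNC and 102, 105 and 107 FPKM in shPQBP1. The shNC libraries 2 and 3 lay just under the shPQBP1 libraries and shNC library 1 far below, at a level that set both the mean and the spread of the group. The log2 difference was 0.37 ± 0.21 (SE), with an interval from -0.14 to 0.88 (adjusted p = 0.314, limma). Without shNC library 1 it fell to 0.12, with an interval from -0.001 to 0.24 and an adjusted p of 0.206. In that library 29.8% of the genes of the table were listed at 0, against 26.5% to 27.8% in the other 5, and the part of this in the low ETS1 value was not tested.

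ETS2, named with ETS1 as a nuclear target of RAS signalling, lies at chr21:38805183-38824955 on the plus strand. Its level was 22.6, 20.3 and 21.7 FPKM in shNC and 21.9, 21.9 and 21.0 FPKM in shPQBP1. No member was steadier, with a 1.11-fold ratio of the highest to the lowest library. The log2 difference was 0.00 with a 95% confidence interval from -0.18 to 0.18 (adjusted p = 0.975, limma). The sign of so small a difference turned in 7 of the 16 alternatives.

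The 4 ETS genes stand as neighbouring pairs of the genome. ETS1 and FLI1 are 99.0 kb apart on chromosome 11, and ERG and ETS2 are 143 kb apart on chromosome 21, with 0 annotated protein-coding genes between the members of either pair. Neighbours had unlike levels. ETS1 stood at 93.9 FPKM and FLI1 at 6.86 FPKM over the 6 libraries, and ETS2 at 21.6 FPKM and ERG at 1.10 FPKM. In log2 difference, ERG had 0.68 where ETS2 had 0.00, and ETS1 had 0.37 where FLI1 had -0.10, and the differences between neighbours were not tested.

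**Figure D2:**
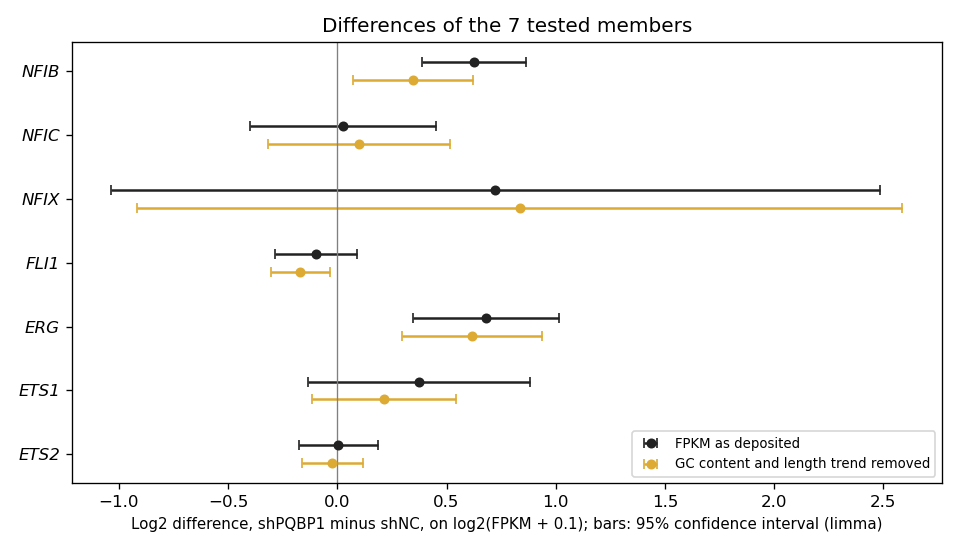
Log2 difference (shPQBP1 minus shNC, log2(FPKM + 0.1)) of the 7 tested members with 95% confidence intervals from limma, on the values as deposited (black) and after each library's trend on transcript GC content and length was removed (yellow). Removing the trend takes NFIB from 0.63 to 0.35 and ERG from 0.68 to 0.62, and the interval of NFIX is the widest of the 7.

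FPKM is per kilobase, so that levels may be ranked across genes. The order of means was ETS1, ETS2, FLI1, NFIC, NFIX, NFIB, ERG and NFIA, from 93.9 to 0.51 FPKM. ETS1 lay above ETS2, ETS2 above FLI1, FLI1 above NFIC and NFIB above ERG in 6 of 6 libraries with no overlap of their ranges. ERG also lay above NFIA in 6 of 6. Their ranges nearly met across libraries, with ERG lowest at 0.77 FPKM in shNC library 3 and NFIA highest at 0.75 FPKM in shPQBP1 library 1. NFIX could not be placed beside NFIC or NFIB, as it lay below NFIC in 3 libraries and above it in the other three, and likewise for NFIB.

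The 4 ETS members summed to 87.2, 123 and 127 FPKM in shNC and to 132, 135 and 136 FPKM in shPQBP1. ETS1 supplied 65.3% of this sum in shNC library 1 and 76.8% to 78.7% in the other 5 libraries. ETS2 came next, with 25.96% in shNC library 1 and 15.5% to 17.1% elsewhere, and ERG gave 0.605% to 1.06%.

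Transcript composition moved with the difference across genes, which touches NFIB and ETS1. Over 11385 tested genes with a canonical GENCODE transcript, the Spearman correlation of the log2 difference with GC content was -0.46, a description across genes of the same 6 libraries. NFIB has a GC content of 40.3% and ETS1 of 42.6%, ERG and FLI1 lie at 45.6% and 44.9%, and NFIC and NFIX at 59.0% and 61.0%. Among the 991 tested genes within 1 percentage point of NFIB the median log2 difference was 0.20 and the central 90% ran from -0.29 to 0.81, a range that holds the 0.63 of NFIB. For ERG the median of 903 such genes was 0.03 and the central 90% ended at 0.63, under its own 0.68. ERG was among the tested genes only through its shPQBP1 values. Its place among them and its adjusted p are therefore not read as support for a difference. With the GC content and length trend of each library removed, the adjusted p of NFIB was 0.112 and that of ERG 0.0425 (limma). The log2 difference of ETS1 went from 0.37 to 0.21 (adjusted p = 0.355), and that of FLI1 from -0.10 to -0.17 (unadjusted p = 0.0225, adjusted p = 0.115), so that 3 members were under 0.05 before adjustment. That correction gave 489 higher and 517 lower calls over all genes, where the values as deposited gave 197 and 135. The part of GC content in these differences was not tested.

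**Figure D3:**
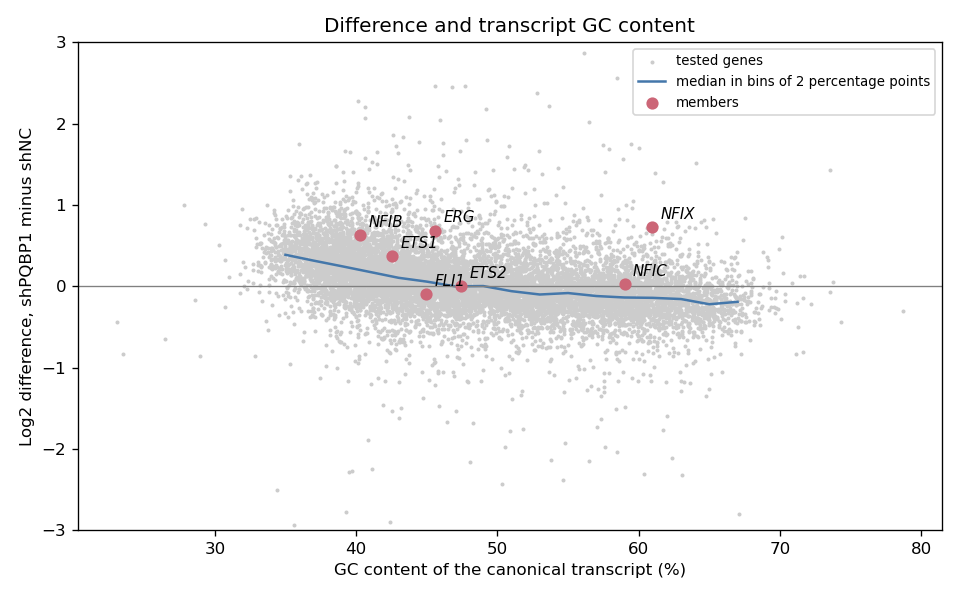
Log2 difference (shPQBP1 minus shNC) against the GC content of the canonical transcript in percent for the tested genes (grey; 8 genes beyond ±3 are not shown), with the median in bins of 2 percentage points (blue line) and the 7 tested members (red). The median falls from low to high GC content, NFIB lies in the upper part of the cloud at 40.3% GC, and NFIX lies well above the median at 61.0% GC.

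Other annotated genes overlap the spans of 6 members and have rows in the table. The overlapping RNAs SENCR (mean 0.33 FPKM) and ENSG00000245008 (mean 0.21 FPKM), both antisense to FLI1, were the most abundant, and NFIB-AS1 was listed at 0 in all libraries. As the strand setting of the counting is not given in the sources used here, reads from a gene and its antisense partner may be mixed. The highest mean among the overlapping genes was the 0.33 FPKM of SENCR.

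The wider ETS family was read from a list of the other ETS genes, of which 21 had a row and 13 were tested. Of these, 1 rose and 1 fell at an adjusted p under 0.05, against 2.91% of all genes called in either direction, and their median log2 difference was 0.11. ELK3, a ternary complex factor that acts with serum response factor, rose from 18.7, 24.4 and 23.0 FPKM to 72.3, 70.9 and 74.5 FPKM. The ratio of the group means was 3.30, with a log2 difference of 1.73 ± 0.11 (SE; adjusted p = 0.00389, limma). It was called in 15 of 16 alternatives. ETV4, a PEA3-type activator downstream of receptor tyrosine kinases, fell from 12.3, 10.9 and 11.4 FPKM to 8.28, 8.31 and 8.25 FPKM, a log2 difference of -0.47 (adjusted p = 0.0364, limma). Its adjusted p was under 0.05 in 7 of 15 alternatives and, of the 6 that left out a library, only without shNC library 1, with 0.0812 to 0.159 in the other 5.

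Others in that list differed without passing. ELK4, a second ternary complex factor, had a log2 difference of 0.74 (adjusted p = 0.195, limma), and GABPA, the ETS subunit of the GA-binding protein that serves mitochondrial and housekeeping promoters, had 0.64 (adjusted p = 0.193). Without shNC library 1 these were 0.39 for ELK4 and 0.38 for GABPA, and with the GC content and length trend removed they were 0.39 and 0.31. ELF2 had -0.44, with 1.21 and 1.22 FPKM in shPQBP1 libraries 1 and 2 and 2.72 FPKM in library 3. Adding the 4 members to the list gave 25 ETS genes, of which 17 had a mean of at least 1 FPKM and 8 stayed under 1 FPKM in every library, among them the epithelial factors ELF3, ELF5, EHF and SPDEF. Among the 25, ETS1 had rank 1 by mean level, ETS2 rank 4, FLI1 rank 10 and ERG rank 17. All 25 summed to 219.8, 255 and 259.6 FPKM in shNC and 310.9, 312 and 317 FPKM in shPQBP1, and ELK3 contributed the most to that gap.

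**Figure D4:**
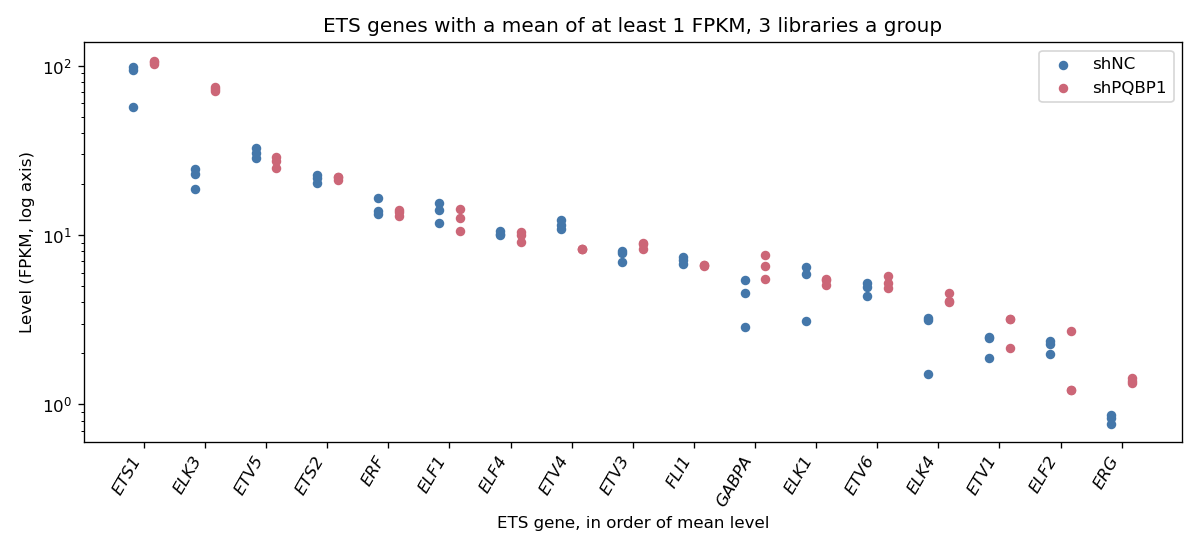
Levels in FPKM (log axis) of the 17 ETS genes with a mean of at least 1 FPKM, in order of mean, for the 3 shNC (blue) and 3 shPQBP1 (red) libraries. ELK3 stands clear of its shNC values at 70.9 to 74.5 FPKM, while ETS2 and FLI1 differ little and ERG sits at the foot of the expressed family.

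Of 19 partners and regulators of ETS factors 16 were tested. After adjustment 0 were called, against 2.91% of all genes, and before it 2 were under 0.05, against 23.6% (limma), both lower in shPQBP1. For so few genes these counts do not set the list apart from the rest. These were SRF, the partner of ELK3 and ELK4 at serum response elements (log2 difference -0.33, adjusted p = 0.146), and PIAS4, a SUMO ligase (-0.27, adjusted p = 0.191). TRIB2, a pseudokinase adaptor of the COP1 ligase, had 0.27 (adjusted p = 0.328), and the most abundant of the list, DAXX, a chaperone of histone H3.3, had -0.04 (adjusted p = 0.856). The median of the 16 was -0.002.

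Of 24 genes that other work has placed under ETS factors, 12 were tested, and 3 rose and 0 fell at an adjusted p under 0.05. The background was 2.91% called in either direction and 1.73% called as higher. The lists were chosen with earlier results of these data known, so these counts do not set the list apart from the rest. The median log2 difference of the 12 was 0.08. ITGB3, integrin β3, rose from 3.63, 3.01 and 3.41 FPKM to 6.55, 7.71 and 8.08 FPKM, a log2 difference of 1.13 (adjusted p = 0.0132, limma). TNC, the matrix protein tenascin C, rose from 25.4, 24.3 and 22.1 FPKM to 38.0, 40.2 and 39.0 FPKM, a difference of 0.71 (adjusted p = 0.0154). CXCL8, the chemokine interleukin-8, rose from 116.7, 117.6 and 124 FPKM to 165.3, 171.5 and 164.1 FPKM, a difference of 0.48 (adjusted p = 0.0189), and with the GC content and length trend removed the difference of CXCL8 was 0.17 (adjusted p = 0.595). These 3 encode a receptor, a matrix protein and a secreted signal. The call of ITGB3 was lost without shNC library 3 (adjusted p = 0.0585, limma), shPQBP1 library 2 (0.0732) or shPQBP1 library 3 (0.0802). Those of TNC and CXCL8 held without shNC library 1 and were lost without any of the other 5, with adjusted p-values up to 0.0889 and 0.106.

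The rest of that list did not pass. CDH5, endothelial cadherin, had a log2 difference of 0.44 (adjusted p = 0.151, limma), and PLAU, urokinase, the most abundant target at 355 to 479 FPKM, had 0.23 (adjusted p = 0.208). DUSP6, a phosphatase of ERK, had -0.21 (adjusted p = 0.475). In the list, 11 genes were under 1 FPKM in every library, including the endothelial genes KDR, FLT1, TEK and VWF. Other endothelial genes of the list were expressed and tested, with TIE1 at 26.5 to 30.8 FPKM, ENG at 34.02 to 42.2 FPKM, ICAM2 at 3.43 to 4.44 FPKM and CDH5 at 2.11 to 3.64 FPKM.

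Of 17 genes that other work has placed under NFI factors 13 had a row and 6 were tested. After adjustment 0 were called, against 2.91% of all genes, and before it 1 was under 0.05, against 23.6% (limma), counts too small to read. The median log2 difference of the 6 was -0.13. CDKN1A, the cell cycle inhibitor p21, was 101.2, 87.1 and 87.0 FPKM in shNC and 18.8, 79.4 and 16.95 FPKM in shPQBP1. Every shPQBP1 library lay under every shNC library, with libraries 1 and 3 far under and library 2 much nearer to shNC. Its log2 difference was -1.64 with an interval from -3.04 to -0.23 (adjusted p = 0.166), and without shPQBP1 library 2 it was -2.35 with an adjusted p of 0.00929. HES1, a Notch effector, had -0.31 (adjusted p = 0.274) and ZCCHC24 had 0.21 (adjusted p = 0.284), and 7 of the 13 genes, such as the glial genes GFAP and SLC1A2, stayed under 1 FPKM in every library. Of 9 NFI partners 5 were tested. After adjustment 0 were called, against 2.91% of all genes, and before it 0, against 23.6% (limma), again too few genes to read. SKIL, a repressor of SMAD signalling, had 0.30 (adjusted p = 0.541), SOX9 had -0.09 (adjusted p = 0.467) and SMARCA4, a chromatin remodelling ATPase, had -0.07 (adjusted p = 0.659). SKI, the most abundant of the partners, had 0.02 (adjusted p = 0.901).

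Likeness to the members over the 6 libraries was measured by Pearson's r of log2(FPKM + 0.1) among the tested genes, as a description. With 6 libraries from 2 groups, high values were plentiful, and 302 genes had r above 0.95 with NFIB, 252 with ERG and 542 with ETS1. Closest to NFIB were ARNTL2 (r = 0.999), RASSF3 (r = 0.999) and EDNRA (r = 0.999), and closest to ERG were TNC (r = 0.999), PAPSS2 (r = 0.999) and IL1B (r = 0.998). ETS1 was followed by DDAH1, CCDC117 and PIGX (r = 0.997 for each), and CCDC117 shared the low value in shNC library 1, with 2.25 FPKM there against 7.63 to 10.1 FPKM elsewhere.

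Fewer genes were close to the others. NFIX had 21 genes above 0.95, led by MYL6B (r = 0.995), SPRYD7 (r = 0.995) and DPM3 (r = 0.993). SPRYD7 stood at 8.89, 5.97 and 6.17 FPKM in shNC and 8.85, 9.26 and 6.34 FPKM in shPQBP1. It was high in the same libraries as NFIX, over a narrower range. FLI1 had 14, led by TXLNG (r = 0.976), TASP1 (r = 0.975) and PABPC1 (r = 0.970). NFIC had 9, led by EEF1A1P11 (r = 0.975), CIAO2A (r = 0.971) and CEP85 (r = 0.970), and the first of these is a pseudogene of an abundant elongation factor gene and may take reads from it. ETS2 had 19, led by BX664615 (r = 0.994), NDUFB1 (r = 0.992) and TIMM29 (r = 0.988).

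Markers of other cell types that carry FLI1 and ERG were read in the same libraries. Of 7 endothelial markers 5 were under 1 FPKM in every library, with PECAM1, VWF, EMCN and CLDN5 at 0.25 FPKM or less, while TIE1 (26.5 to 30.8 FPKM) and CDH5 (2.11 to 3.64 FPKM) were present. Their summed level was 29.4 to 32.5 FPKM in shNC and 30.3 to 34.5 FPKM in shPQBP1. Of 6 blood cell markers 3 had rows, all under 1 FPKM, with PTPRC listed at 0 in all libraries, and the 6 fibroblast markers were all under 1 FPKM. For the labelled cell type, KRT7, KRT8 and KRT18 stood at 52.8 FPKM or more, whereas MUC16, ESR1 and CDH1 were at or near 0. The epithelial markers KRT19, at 1.19 to 2.10 FPKM, and EPCAM, at 0.79 to 1.13 FPKM, were low. Of the 6 ovarian carcinoma markers 3 were tested. These 3 had a higher mean in shPQBP1. Of them 1 was called at an adjusted p under 0.05 (limma), against 1.73% of all genes called as higher. WT1, under 1 FPKM in every library and not tested, went the other way. Its level was 0.63, 0.71 and 0.68 FPKM in shNC and 0.31, 0.34 and 0.45 FPKM in shPQBP1. MSLN, mesothelin, rose from 14.4, 13.98 and 11.96 FPKM to 23.1, 25.6 and 22.8 FPKM (log2 difference 0.82, adjusted p = 0.0187, limma). Of the fits that left out a library this call held only without shNC library 1, with an adjusted p of 0.0607 to 0.0941 in the other 5. PAX8, a Müllerian lineage factor, had a difference of 0.53 (adjusted p = 0.102) and SOX17 one of 0.68 (adjusted p = 0.108). The summed level of the 6 was 25.99 to 31.6 FPKM in shNC and 43.7 to 51.8 FPKM in shPQBP1. All 4 markers of the mesenchymal state were tested, and 1 rose at an adjusted p under 0.05 (limma), against the same 1.73%. Counts over so few markers do not set them apart from the rest. FN1, fibronectin, went from 42.5, 44.6 and 43.1 FPKM to 127.4, 154.7 and 149.5 FPKM (log2 difference 1.72, adjusted p = 0.00176). ZEB1, a repressor of epithelial genes, had 0.84 (adjusted p = 0.157), VIM 0.14 (adjusted p = 0.217) and CDH2 0.13 (adjusted p = 0.357). MSLN and FN1 were thus higher in the same libraries as NFIB, ERG, ELK3, ITGB3 and TNC, and the part of these markers in those differences was not tested. In bulk RNA a lower share of cells with a transcript and less of it per cell cannot be told apart.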

How the data were processed

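Poly(A) RNA was sequenced in 6 libraries. Per the labels and the study's methods, the authors aligned paired-end reads to hg38 with HISAT2 (2.2.0), sorted them with SAMtools (1.9), assembled and quantified them with StringTie (1.3.0) and compared groups with edgeR. The deposited values are gene-level FPKM. Their annotation release and strand setting are not given in the sources used here. The columns of the authors' own comparison (fold changes, p-values, calls) were not used. No whole-read steps were found, so the depth is unknown and no counting error is given. The FPKM totals of the libraries were 278286 to 318484.

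Genes with a mean of at least 1 FPKM (11413) were tested on log2(FPKM + 0.1) with limma (3.58.1, R 4.3.3, mean-variance trend), with Benjamini-Hochberg adjustment over all of them and two-sided tests. The procedure was tested on simulated data. The members and lists were chosen with earlier results of these data known. Genes named from a list were those called, the 3 others with the largest difference and the most abundant one, and for each member of at least 1 FPKM the 3 genes most correlated with it. Transcript features come from GENCODE v44. Alternatives covered scaling, filters, pseudocounts, the variance trend, GC content and length, a replicate block and leaving out each library.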

Additional observations from a re-analysis of the deposited data

How the results depend on the processing

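Depth is unknown for FPKM values, which limits low genes such as NFIA and ERG most. The replicate numbers did not pair the libraries, as the correlations of same-numbered deviations were -0.186, -0.138 and -0.011. With the replicate block, calls fell to 0 over all genes (1840 at an unadjusted p under 0.05), 0 among the members and 0 in the lists, and NFIB, at 0.626, had an adjusted p of 0.221 and ELK3 of 0.0863 (limma). With the GC content and length trend removed, 1006 genes were called, NFIB was 0.347 and ERG 0.616, now under 0.05, and with the replicate block added 19 genes, 0 members and 1 list gene were past the threshold, with NFIB at 0.347. Testing every gene above 0 FPKM gave 190 calls and 0 members (NFIB 0.626), and a mean of at least 10 FPKM gave 211 calls, 3 list genes, and 0 members by adjusted or unadjusted p, since it left 2 of the 8. Pseudocount 1 (ERG 0.385) and no mean-variance trend (ERG 0.682) each called 2 members. Leaving out 1 library gave 30 to 464 calls over all genes, 0 to 1 members, 1 to 5 list genes and 2 members at an unadjusted p under 0.05. The log2 difference then ran from 0.559 to 0.663 for NFIB, from -0.038 to 0.040 for ETS2 and from -0.072 to 0.215 for NFIC. The sign turned for ETS2 under median-of-ratios scaling (-0.001), quantile normalization (-0.021) and GC correction without and with the block (-0.023), and without shNC replicate 2 (-0.038) and shPQBP1 replicates 1 (-0.007) and 2 (-0.004). It turned for NFIC under quantile normalization (-0.022) and without shNC replicate 1 (-0.016) and shPQBP1 replicates 1 (-0.060) and 2 (-0.072). DAXX (-0.109 to 0.086 when leaving out a library) turned to 0.043 with GC correction, with and without the block, and to 0.086 without shPQBP1 replicate 2. SKI (-0.050 to 0.065 when leaving out a library) turned under quantile normalization (-0.022) and without shNC replicate 3 (-0.006) or shPQBP1 replicate 2 (-0.050), and SKIL (-0.081), SMARCA4 (0.044) and CDH2 (-0.003) turned with GC correction. Apart from fits with fewer samples or another set of genes, the cause was not tested.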

Other observations

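Genes of the ETS and NFI lists with a mean of 0.1 to under 1 FPKM were too low to be tested. The groups did not overlap for 6 of 14 such genes, against 20.3% of the 6993 genes of the table in that range, and the 6 are named here after their values were seen. All shPQBP1 libraries were higher for EHF, an epithelial ETS factor, with 0.10, 0.20 and 0.21 FPKM in shNC and 0.42, 0.46 and 0.40 FPKM in shPQBP1. They were also higher for MMP1, interstitial collagenase, with 0.68, 0.43 and 0.45 FPKM against 1.08, 1.04 and 1.05 FPKM. Lower in shPQBP1 was PECAM1, an endothelial adhesion protein, with 0.24, 0.23 and 0.25 FPKM against 0.02, 0.03 and 0.06 FPKM. RUNX3, a Runt-domain factor, was 0.96, 0.80 and 0.67 FPKM against 0.30, 0.39 and 0.39 FPKM. PTHLH, parathyroid hormone-like hormone, was 0.79, 0.83 and 0.65 FPKM against 0.50, 0.37 and 0.54 FPKM. MMP9, a gelatinase, was 0.22, 0.25 and 0.21 FPKM against 0.11, 0.20 and 0.11 FPKM, with shNC library 3 and shPQBP1 library 2 almost level. How many reads stand behind such values is not known.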
